A study of Mus musculus with 6 samples.

Results

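The regions described here were the 15140 of 74686 accessible regions (20.3%) that lay within 2 kb of the start or the end of exactly 1 protein-coding gene. They were chosen by position alone, from the region coordinates (GRCm38) and the RefSeq gene table (GRCm38.p6), with the distance measured from the nearest edge of the region. They lay beside 10522 of 21887 protein-coding genes, with 1 region at 7129 genes, 2 at 2501 genes, and 3 to 7 at 892 genes. The strand was known for 8295 of these genes: 9090 regions were nearest to a gene start, 2810 were nearest to a gene end, and 3240 belonged to genes without a listed strand. Regions of 1 gene share that gene, and each was assigned to a gene by distance only. The start and end of a gene are its outermost boundaries in the gene table. A region counted as away from the start can therefore hold another listed start of that gene.

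The cells were OT1 CD8 T cells, whose transgenic receptor recognises an ovalbumin peptide, taken from tumors of B16-OVA-GP61, a mouse melanoma line engineered with ovalbumin and GP61, the epitopes seen by the transferred T cells. Cells were sorted on CD8 and on CD45.1, a congenic marker used to track transferred cells. In 3 libraries no SMARTA cells were given, and in 3 libraries they were present; SMARTA cells are CD4 T cells with a transgenic receptor for GP61. Both groups share the tumor line, the OT1 cells and the sort, and the labels used here give no mouse strain, age, day of harvest or number of animals. The comparison asks how chromatin of tumor-specific CD8 T cells at gene boundaries differs with CD4 T cell presence. The labels do not state that replicates are separate animals; each p-value reflects the variation among these 6 libraries, part of which may be technical.

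Chromatin is opened at the starts of active genes, where nucleosomes are displaced and RNA polymerase II and general transcription factors assemble. CpG-rich promoters are accessible in most cell types, whereas enhancers and the promoters of tissue-restricted genes open and close with cell state. In T cells, AP-1 (BATF with JUN), NFAT, NR4A and RUNX factors bind many of the sites that change with activation and with the dysfunctional state of chronic antigen exposure called exhaustion. ATAC-seq reads this accessibility from DNA fragments cut by a transposase.

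The following stretches show the DNA at 5 gene starts named further on. Not all of their calls are stable: those at Gzmb and Myb were lost in most fits that left out 1 library. The stretches of Gzmb and Il21r closed with SMARTA cells and hold AP-1 or NR4A letters. That of Myb closed and has no match to the motifs searched, and those of B4galnt4 and Spsb1 opened. Each is the 150 bases before the RefSeq start, 5′ to 3′ in the direction of the gene, from the RefSeq promoter table (GRCm38.p6), and each lies whole within its region. Capitals mark letters that match a motif on either strand: TGANTCA for AP-1 and TGTGGTT for RUNX in Gzmb, AAAGGTCA for NR4A and GGGCGG for SP/KLF in Il21r, CCAAT for NF-Y in B4galnt4, and GGGCGG for SP/KLF in Spsb1.
Gzmb, chr14:56262335-56262484, minus strand: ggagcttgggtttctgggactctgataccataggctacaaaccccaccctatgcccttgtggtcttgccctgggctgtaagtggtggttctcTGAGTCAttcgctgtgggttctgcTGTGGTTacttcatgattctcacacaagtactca
Il21r, chr7:125603279-125603428, plus strand: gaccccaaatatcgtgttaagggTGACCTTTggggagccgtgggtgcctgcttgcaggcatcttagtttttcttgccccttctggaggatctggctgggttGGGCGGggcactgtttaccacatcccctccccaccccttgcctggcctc
Myb, chr10:21160985-21161134, minus strand: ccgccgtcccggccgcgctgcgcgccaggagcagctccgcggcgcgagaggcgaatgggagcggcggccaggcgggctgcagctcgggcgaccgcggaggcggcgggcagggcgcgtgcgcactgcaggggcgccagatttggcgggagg
B4galnt4, chr7:141060828-141060977, plus strand: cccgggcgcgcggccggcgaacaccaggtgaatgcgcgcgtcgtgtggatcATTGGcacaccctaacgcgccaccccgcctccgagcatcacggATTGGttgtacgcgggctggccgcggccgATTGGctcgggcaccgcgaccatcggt
Spsb1, chr4:149955007-149955156, minus strand: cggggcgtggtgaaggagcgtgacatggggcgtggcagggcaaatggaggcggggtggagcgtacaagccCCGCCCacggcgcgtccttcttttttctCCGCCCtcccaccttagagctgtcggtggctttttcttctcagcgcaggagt

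Total counts in the atlas ranged from 16595779 to 27182809 per library, and the median boundary region held 200 to 362 counts. Library 2 with SMARTA cells stood apart: 81.5% of the boundary regions overlapped a peak of its own list, against 89.9% to 93.9% in the other 5 libraries. That library also had the fewest counts, 16595779, and the lowest median, 200. Boundary regions were more often shared by the authors' peak lists than other regions, with 75.6% overlapping a peak in all 6 lists against 55.4%. That share was 82.4% near starts and 55.3% near ends.

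The cells carried open boundary regions at 4 of the 5 CD8 T cell markers named for the check: Cd8a, Cd8b1, Cd3e and Cd3d, while Cd3g had no region near it alone. Their 17 regions summed to 363 to 380 CPM (counts relative to the library total, scaled by the TMM method) without and to 359 to 393 with SMARTA cells. Markers of other cells were checked in the same way. The CD4 T cell list had 5 regions at 3 of 4 genes (none at Foxp3), which summed to 66.2 to 77.4 CPM without and 82.9 to 94.9 with SMARTA cells. The melanoma list had 2 regions at Mitf and Mlana and none at Pmel, Dct, Tyrp1 or Sox10, with sums of 35.3 to 37.2 CPM without and 41.6 to 44.2 with. In these 2 lists the sums did not overlap between the groups, and 0 of their 7 regions passed the test given next. Over the B cell, myeloid, dendritic, NK, and endothelial and fibroblast lists, sums overlapped between the groups, and 1 of 27 regions passed: the one near Spi1, a myeloid transcription factor, opened by 0.89 ± 0.20 (log2 fold ± SE; edgeR adjusted p = 0.016). It lost that call without library 2 or 3 without SMARTA cells (adjusted p = 0.079 and 0.0519) or library 3 with them (0.0612). No marker region was at 0 in any library. The part of other cells in the results was not tested.

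Of the boundary regions, 675 (4.46%) closed with SMARTA cells and 739 (4.88%) opened, where closed and opened mean a negative or positive log2 fold, with minus without SMARTA cells, past an adjusted p of 0.05 in edgeR's quasi-likelihood test over all 74686 regions. Over all regions, 15.1% were called, 10.4% closed and 4.68% opened. Boundary regions were called less often than all regions, at 9.34%, and with this scaling it was closing, not opening, that was rarer. With TMM scaling the closed regions lost more than the opened ones gained: the median log2 fold was -1.13 among closed and 0.31 among opened regions, and 423 closed but 55 opened regions changed at least 2-fold. Closed regions then had a median of 1.98 log2 CPM and opened regions one of 6.09. In all, 1295 genes (12.3% of those with a boundary region) had a called region: 603 had a closed one, 706 an opened one and 14 both. In bulk libraries, fewer cells with a site open and less access in each cell cannot be told apart.

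The closed count held across scalings and the opened count did not, so the order of the 2 counts flips: 748 closed and 356 opened with loess scaling, 746 and 411 with total-count scaling, and 755 and 449 with DESeq2. What the opened regions were also depends on the scaling: their median was 3.14 log2 CPM with a fold of 0.79 with loess scaling, 5.53 with 0.41 with total-count scaling and 3.98 with 0.61 with DESeq2, while the closed ones had medians of 2.13 to 2.47 log2 CPM and folds of -1.0 to -1.11. Single libraries also moved both. Leaving out library 1, 2 or 3 without SMARTA cells gave 457, 380 and 371 closed and 262, 247 and 172 opened, and leaving out library 1, 2 or 3 with SMARTA cells gave 733, 717 and 326 closed and 787, 640 and 451 opened.

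The authors' peak lists, called library by library from the same reads, were compared with these calls. Among the 675 closed regions, 143 had a peak in all 3 lists without SMARTA cells and in none with them, and the reverse occurred at 0. Library 2 with SMARTA cells, which had the fewest counts, had a peak at 38.2% of the closed regions. Libraries 1 and 3 with SMARTA cells had one at 65.8% and 60.1%. Among the 739 opened regions, 11 had a peak in all 3 lists with SMARTA cells only, and 681 (92.2%) had one in all 6 lists. With TMM scaling, opened boundary regions were thus mostly sites that carried a peak in every library. A peak in all 6 lists was also found at 76.6% of the 13726 regions that did not pass, and at 37.8% of the closed ones. Among those 13726, 88 had a peak in all 3 lists without SMARTA cells only, and 47 in all 3 with them only. The overlap was taken for the TMM calls only, and the opened regions differ under other scalings.

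Counted without regard to accessibility, a smaller share of regions closed near gene starts than near gene ends. Near starts, 312 of 9090 regions closed and 487 opened (3.43% and 5.36%), and near ends, 211 of 2810 closed and 110 opened (7.51% and 3.91%). Of the 4881 regions that held the start itself, 87 closed (1.78%) and 297 opened (6.08%), but with loess scaling these were 118 and 43, with total-count scaling 102 and 136, and with DESeq2 104 and 82. The share closed rose with distance from the start, from 1.78% at the start to 3.69% at 1 to 250 bases, 3.65% at 251 to 500, 4.89% at 501 to 1000, 6.13% at 1001 to 1500 and 8.90% at 1501 to 2000. The median accessibility fell over the same distance, from 5.34 to 3.02 log2 CPM. Just outside the 2 kb limit, at 2001 to 2500 bases, 37 of 574 regions closed (6.45%).

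**Figure D1:**
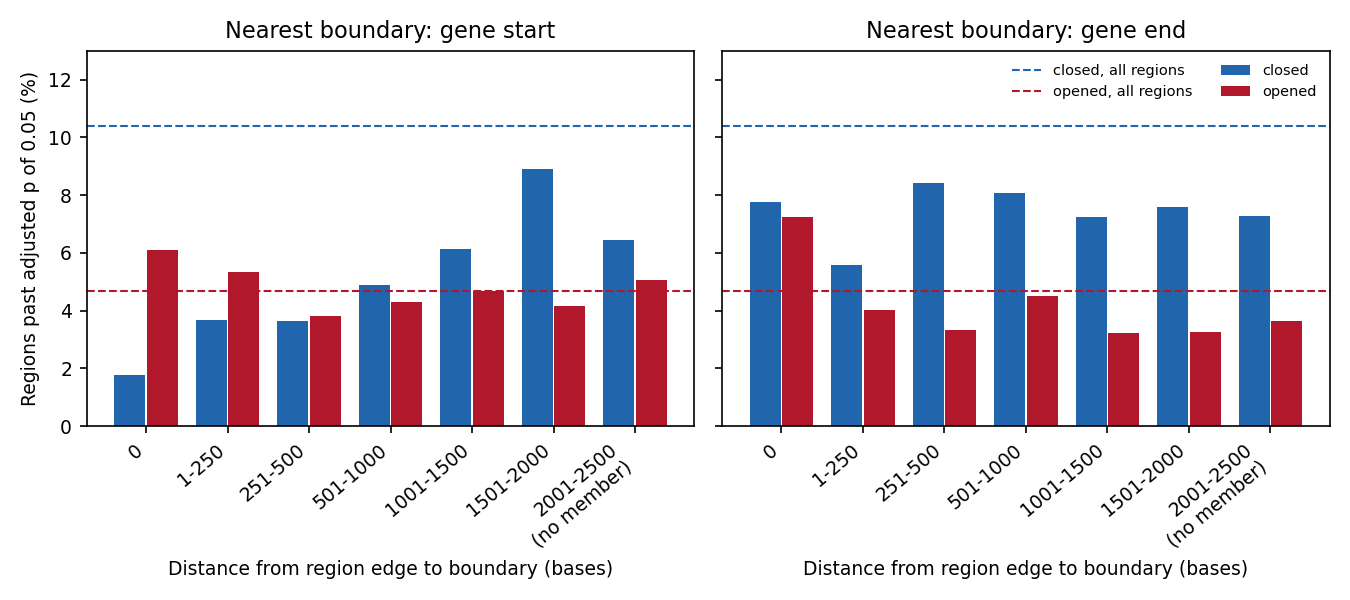
Share of regions closed (blue) or opened (red) with SMARTA cells, in percent, by the distance in bases from the region's nearest edge to the nearest gene start (left) or gene end (right); dashed lines give the shares over all regions, 10.4% and 4.68%. Closing rises from 1.78% at the start to 8.90% at 1501 to 2000 bases and stays between 5.59% and 8.43% near ends; the opened share at the start, 6.08%, drops below the closed one with loess scaling.

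Near ends the share closed was between 5.59% and 8.43% in every distance class, with no such gradient, and it was 7.27% (46 of 633) just outside the limit. End regions had a median of 1.76 log2 CPM, against 4.65 near starts and 1.75 at regions inside genes beyond 2 kb. Of the end regions, 34 of 2810 overlapped a listed promoter, against 6062 of 9090 near starts. Regions upstream of the start but not holding it closed in 102 of 1216 cases (8.39%), and regions downstream of it within the gene in 123 of 2993 (4.11%). No test of these differences between classes of region was made.

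Accessibility differs between boundary regions and the rest, so shares were also taken within 5 equal classes of all regions by mean log2 CPM. In the lowest class 8.83% of boundary regions and 14.5% of other regions closed, and in the highest class 1.23% and 4.06%. Opening ran from 0.742% of boundary and 1.27% of other regions in the lowest class to 8.55% and 10.8% in the highest. Boundary regions had the lower share in both directions in all 5 classes, also with loess scaling, total-count scaling and DESeq2. The highest class held 44.9% of the boundary regions and 13.7% of the others, which is where most opened boundary regions lay (582 of 739). With loess scaling, 121 boundary regions of that class opened and 179 closed. Starts and ends did not keep 1 order of closing across the classes. In the 2 lowest classes 10% and 9.64% of start-side and 8.19% and 7.34% of end-side regions closed, while in the other 3, from low to high, 8.30%, 3.95% and 1.01% of start-side and 9.46%, 5.85% and 4.90% of end-side regions closed. With loess scaling the start-side share was the higher one only in the second lowest class, at 8.37% against 6.47%.

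**Figure D2:**
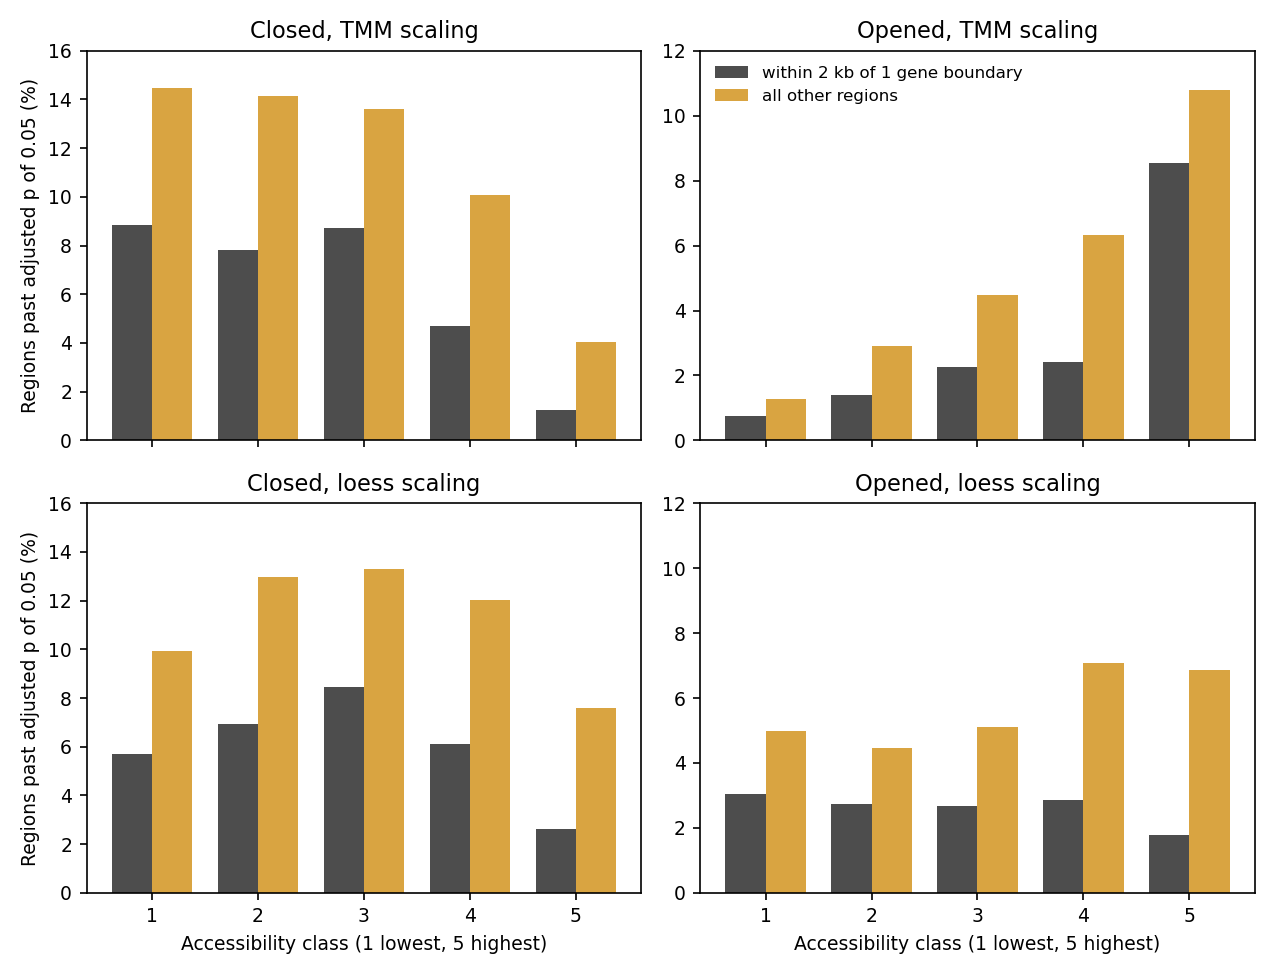
Share of regions closed (left) or opened (right), in percent, in 5 classes of mean accessibility, for boundary regions (grey) and all other regions (yellow), with TMM scaling (top) and loess scaling (bottom). Grey bars are below yellow ones in all 20 pairs of shares; the climb of opening in class 5, 8.55% of boundary regions with TMM scaling, is not seen with loess scaling.

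Summed over each library, boundary regions took a larger part of the counts with SMARTA cells. They held 40.9%, 41.0% and 40.9% of the counts in the libraries without and 42.1%, 44.2% and 42.1% in those with SMARTA cells. The groups did not overlap, and library 2 with SMARTA cells lay above the rest: the difference was 1.83 percentage points with it and 1.14 without it. The mean log2 CPM of boundary regions minus that of other regions was 1.39 ± 0.01 (SD, n = 3) without and 1.52 ± 0.02 (SD, n = 3) with SMARTA cells. Both differences had p = 0.10 in a two-sided exact permutation test, the smallest that 3 libraries against 3 can give. With TMM scaling the other regions had a mean of 2.30 log2 CPM without and 2.13 with SMARTA cells, and boundary regions 3.68 and 3.65. End regions held 2.17%, 2.06% and 2.1% of the counts without and 2.04%, 2.05% and 2.08% with SMARTA cells, which overlapped (exact permutation p = 0.20).

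**Figure D3:**
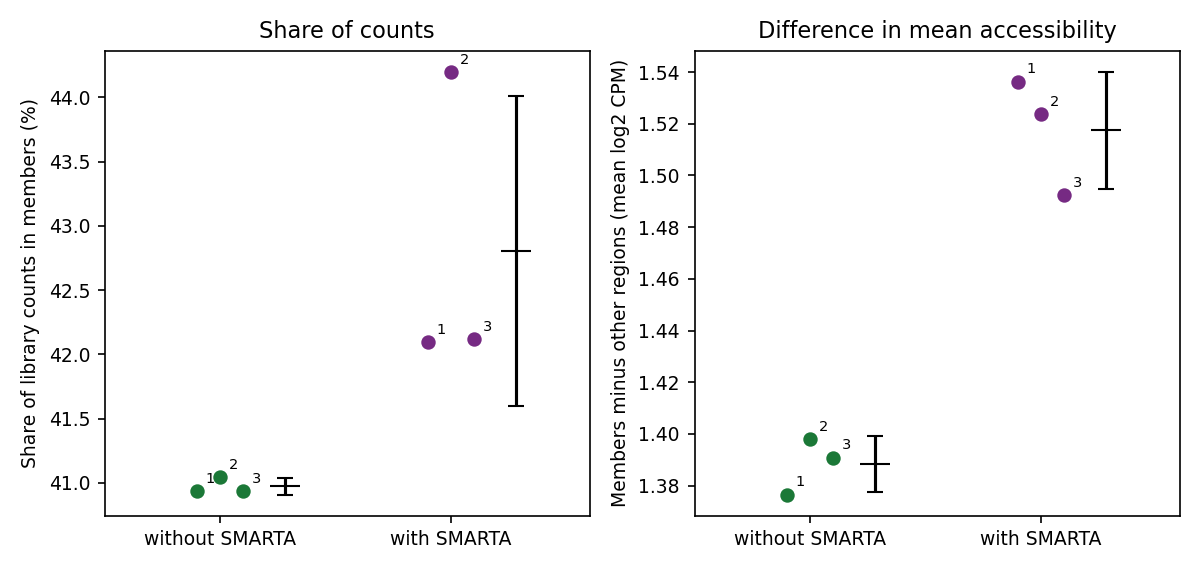
Left, share of each library's counts in boundary regions, in percent; right, mean log2 CPM of boundary regions minus that of other regions; each numbered point is 1 library and the bar is the mean ± SD over 3. In both panels the libraries with SMARTA cells lie above those without, and on the left library 2, at 44.2%, stands above the other 5.

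Most gene starts did not close, whether or not regions inside the gene closed. Among 2609 genes with a region holding the start and regions inside the gene beyond 2 kb, 619 had closed and no opened interior regions. At those genes, 26 starts closed (4.20%), 48 opened (7.75%) and 545 did not pass. Among the 1619 genes with no called interior region, 21 starts closed (1.30%) and 115 opened (7.10%). Over all 2609 genes, 48 starts closed (1.84%) and 198 opened (7.59%). The share closed was thus higher at genes with closed interior regions, and the share opened was similar. These calls were taken with TMM scaling only. Fewer regions holding a start opened under the other scalings, so the excess of opened over closed starts depends on the scaling. These differences were not tested.

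The following genes were chosen after their values were seen. They came from the 11 genes with a region holding the start, 8 or more closed interior regions and no opened one. At Hivep3, a zinc finger regulator of transcription, 17 of 41 interior regions closed, while its start had a log2 fold of 0.26 ± 0.08 and opened (edgeR adjusted p = 0.044); that call was lost with loess scaling (adjusted p = 0.22) and without any library but library 3 with SMARTA cells (adjusted p up to 0.12). At Prkca, the protein kinase C alpha gene, 15 of 41 closed with a fold of -0.002 ± 0.07 at the start. At Lrch1, which encodes a leucine-rich repeat protein, 11 of 25 closed beside a start at 0.01 ± 0.14 that did not pass. At Fyn, a Src family kinase of T cell receptor signalling, 8 of 35 closed beside a start at 0.16 ± 0.07 that did not pass. St6galnac3, a sialyltransferase gene, had a closed start as well, at -1.03 ± 0.24 (adjusted p = 0.018), beside 9 of 15 closed interior regions; it lost its call without library 1 without SMARTA cells or library 3 with them (adjusted p up to 0.073).

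None of the 20 genes beside the closed and opened regions with the smallest p was in a gene list of the roles described further on. The region 1649 bases from the end of Foxred2, which encodes an endoplasmic reticulum flavoprotein, had 17.9, 21.6 and 21.1 CPM without and 2.75, 1.2 and 1.87 CPM with SMARTA cells, a log2 fold of -3.37 ± 0.27 (edgeR adjusted p = 0.00021). The region 1388 bases from Osr2, a zinc finger factor of limb and palate development, had 16.3, 17.8 and 17 CPM without and 3.11, 2.17 and 2.21 with (-2.77 ± 0.21, adjusted p = 0.00021). That the groups did not overlap follows from the choice, which took only called regions with groups apart, 1 per gene. The region 1076 bases from the start of Slc22a15, a member of the organic ion transporter family, had 7.92, 6.34 and 5.58 CPM without and 0.611, 0.842 and 0.711 CPM with SMARTA cells (-3.19 ± 0.24). The other 7 of the 10 closed regions with the smallest p lay by Rfc2 (a subunit of the replication clamp loader), 2410004P03Rik, Noto (a notochord homeobox factor), Srrm3 (a splicing regulator), Dao (D-amino acid oxidase), Mfsd2a (a lysophospholipid transporter) and Ugt1a10 (a glucuronosyltransferase), with folds of -2.12 to -2.84. All 10 kept their call in each leave-one-out fit and with loess scaling.

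Of the 10 opened regions with the smallest p, 1 held the outermost start of a gene with a listed strand. That gene was B4galnt4, an N-acetylgalactosaminyltransferase gene, whose promoter stretch with 3 NF-Y matches is printed near the opening. The B4galnt4 region had 20.3, 17 and 18.1 CPM without and 37.0, 41.1 and 41.2 with SMARTA cells (1.11 ± 0.12, adjusted p = 0.00045). The region 825 bases from Prdm2, a zinc finger gene of the PRDM family, had 4.18, 5.0 and 4.3 CPM without and 13.2, 14.9 and 23.0 with (1.92 ± 0.24, adjusted p = 0.00085). Every library with SMARTA cells was above every library without at both, which the choice of these regions required. The other 8 lay by Gm46319, Olfr9 and Olfr157 (olfactory receptors), Tuba4a (an alpha tubulin), Rrad (a small GTPase), Bbc3 (the pro-apoptotic BH3 protein PUMA), Rinl (a guanine nucleotide exchange factor) and Med10 (a Mediator subunit), with folds of 0.57 to 1.95. The one by Bbc3 lay 1588 bases from the outermost start but covered the 150 bases before another RefSeq start of that gene. All 10 kept their call in each leave-one-out fit and with loess scaling.

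**Figure D4:**
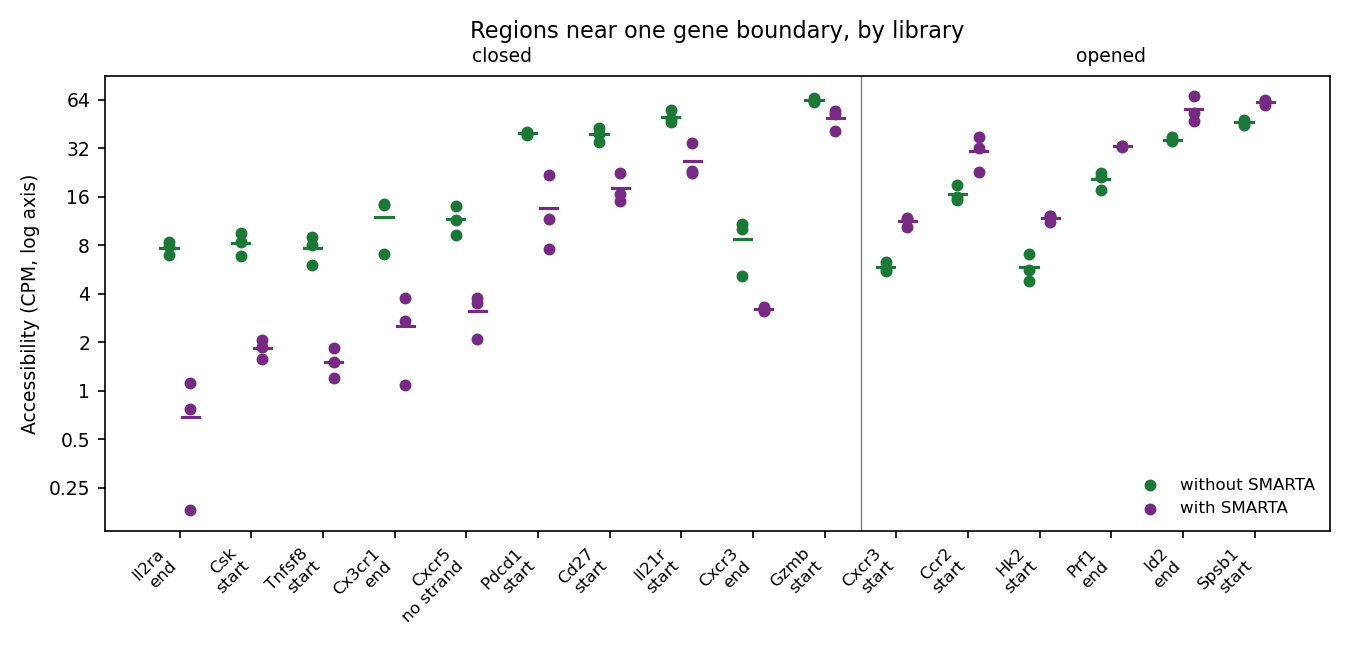
Accessibility in CPM on a log axis at 16 boundary regions, with 1 point per library and a line at the mean of the 3 libraries of a group; green is without and purple with SMARTA cells. The 10 regions on the left closed and the 6 on the right opened, and the groups overlap at none of the 16. All 16 were picked from called regions, a choice that favours groups that do not overlap. Gzmb passes the test in the full set of libraries but not in any leave-one-out fit.

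Genes were then grouped by role. The counts and medians of the lists stand beside 4.46% closed, 4.88% opened and a median log2 fold of 0.06 over all boundary regions, and 10.4%, 4.68% and 0.01 over all regions. A list holds 20 to 59 regions, so 1 region is several percent of a short list, and no test of a list was made. Genes given with CPM values are those with the smallest p of their list. That choice favours groups that do not overlap, so a lack of overlap at them adds little to the test.

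Among inhibitory receptors, the checkpoint molecules that restrain T cells, 6 of 33 boundary regions closed (18.2%) and 0 opened, with a median fold of -0.20. The closed ones lay at Pdcd1 (2 regions), Cd200, Cd244a, Cd38 and Btla. The region 988 bases before the start of Pdcd1, which encodes PD-1, had 40.5, 39.4 and 38.9 CPM without and 21.8, 7.58 and 11.6 CPM with SMARTA cells, a fold of -1.53 ± 0.29 (adjusted p = 0.0068). Libraries without SMARTA cells were tight and those with them spread widely, with no overlap. At the end of Cd200, the ligand of an inhibitory receptor, the values were 4.68, 5.81 and 5.54 CPM without and 2.04, 0.722 and 2.02 with (-1.71 ± 0.31, adjusted p = 0.005). The region 1722 bases from the start of Cd244a, the 2B4 receptor gene, had 6.42, 6.69 and 6.61 CPM without and 3.21, 2.59 and 3.41 with (-1.09 ± 0.19, adjusted p = 0.0043). No boundary region of Tigit, Lag3, Havcr2 or Ctla4 passed, genes named here after their values were seen: at the starts of Tigit, Havcr2 and Ctla4 the folds were 0.11 ± 0.17, -0.35 ± 0.34 and -0.54 ± 0.19. The closed count was 3 without library 2 or 3 without SMARTA cells and 4 without library 3 with them; with loess scaling 1 region opened, and at an unadjusted p under 0.05 there was also 1.

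Exhaustion factors are transcription factors linked to T cell dysfunction, and of their 41 regions 4 closed and 4 opened (9.76% each), with a median of -0.07. The region 985 bases from the end of Id2, an inhibitor of E proteins that favours effector cells, had 35.9, 37.5 and 35.3 CPM without and 47.3, 67.2 and 52.8 with SMARTA cells (0.62 ± 0.12, adjusted p = 0.0078). The start of Batf, an AP-1 partner of JUN and IRF4, had 37.3, 36.3 and 36.1 CPM without and 42.8, 50.2 and 50.8 with (0.39 ± 0.10, adjusted p = 0.021). The groups overlapped at neither. The region 207 bases from the start of Tox2, a relative of the exhaustion factor TOX, had 9.76, 16.1 and 11.6 CPM without and 7.64, 4.81 and 5.69 with (-1.05 ± 0.25, adjusted p = 0.019). Batf lost its call with loess scaling (adjusted p = 0.062) and without library 2 or 3 without SMARTA cells or library 3 with them (0.073, 0.0868 and 0.0715), and Tox2 without the same libraries (0.0858, 0.0507 and 0.0778). Without each of those 3 libraries the list had 0 closed regions. The rest of the calls were closed regions at Nfatc1 (2 regions) and at the end of Nr4a1, and opened ones at Bhlhe40 and at the end of Irf4.

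For cytotoxic and effector molecules, 2 of 28 regions closed (7.14%) and 1 opened (3.57%), with a median of -0.13. The start of Gzmb, the granzyme B gene whose stretch with AP-1 and RUNX letters is printed near the opening, had 62.5, 66.2 and 61.7 CPM without and 52.6, 41.0 and 54.5 with SMARTA cells (-0.36 ± 0.11, adjusted p = 0.044). The groups did not overlap, but the call was lost without any 1 of the 6 libraries (adjusted p from 0.052 to 0.138). It was also lost with DESeq2 (adjusted p = 0.099) and with a replicate block in edgeR (adjusted p = 0.051). The region 1502 bases from the end of Prf1, the perforin gene, had 21.4, 22.5 and 17.7 CPM without and 32.6, 32.9 and 33.2 with (0.68 ± 0.13, adjusted p = 0.0064). The region 1073 bases from Ccl4, a chemokine gene, had 6.08, 10.3 and 8.93 CPM without and 4.18, 2.47 and 2.81 with (-1.42 ± 0.27, adjusted p = 0.0062). No group overlapped another at these 3 regions. The closed count was 1 without any library but library 1 or 2 with SMARTA cells, and 5 without library 1 with them. At the start of Ifng, chosen after its values were seen, the fold was -0.20 ± 0.13 and did not pass.

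Of 47 regions of naive, memory and progenitor genes, 3 closed (6.38%) and 0 opened, with a median of 0.01. Cxcr5, the chemokine receptor that marks progenitor exhausted and follicular T cells, had a region at a boundary with 11.4, 9.27 and 14.1 CPM without and 3.51, 2.11 and 3.78 with SMARTA cells (-1.87 ± 0.26, adjusted p = 0.0014). Cd27, a costimulatory receptor of early memory cells, had one 1256 bases from its start with 35.3, 39.4 and 42.7 CPM without and 22.5, 15 and 16.7 with (-1.11 ± 0.16, adjusted p = 0.0017). At the start of Myb, a factor of memory and stem-like CD8 T cells, the values were 28.5, 28.6 and 29.4 CPM without and 23.9, 17.1 and 19.7 with (-0.51 ± 0.14, adjusted p = 0.04). The groups were apart at all 3 regions, but Myb lost its call without library 1, 2 or 3 without SMARTA cells or library 2 or 3 with them (adjusted p from 0.0567 to 0.133). Myb also lost its call with a replicate block in edgeR (adjusted p = 0.055). None of the 3 regions of Tcf7 or 4 of Ccr7, named after their values were seen, passed: the Tcf7 start had a fold of 0.25 ± 0.24 and the Ccr7 boundary one of -0.02 ± 0.13. The list had 3 opened regions without library 1 with SMARTA cells, 1 with loess scaling and 7 at an unadjusted p under 0.05.

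T cell receptor signalling genes had 6 closed (10.2%) and 1 opened region (1.69%) of 59, with a median of 0.05. The region 839 bases from the start of Csk, the kinase that holds LCK in its inactive form, had 6.82, 8.38 and 9.55 CPM without and 1.58, 1.86 and 2.06 with SMARTA cells (-2.16 ± 0.22, adjusted p = 0.00035). The region 1821 bases from the start of Cd3e, a chain of the CD3 complex, had 11.7, 16.8 and 16.5 CPM without and 6.87, 5.59 and 6.66 with (-1.23 ± 0.21, adjusted p = 0.0035). The one 485 bases from the start of Fyn had 11.8, 15.2 and 13.7 CPM without and 8.30, 6.26 and 7.71 with (-0.87 ± 0.19, adjusted p = 0.014). All 3 had groups apart; Fyn lost its call without library 2 or 3 without SMARTA cells or library 3 with them (0.0713, 0.0589 and 0.0512), and the closed count was then 2, 2 and 3. The region at the start of Lck itself had a fold of 0.18 ± 0.10 and that of Zap70 one of 0.12 ± 0.09, and neither passed; both were chosen after their values were seen.

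Of 34 regions of costimulatory genes, 5 closed (14.7%) and 1 opened (2.94%), with a median of -0.13. Tnfsf8, the CD30 ligand gene, had 2 closed regions before its start: the one 1368 bases away had 6.03, 8.0 and 8.97 CPM without and 1.83, 1.2 and 1.50 with SMARTA cells (-2.33 ± 0.24, adjusted p = 0.00039). The region 1154 bases from Cd28, the main costimulatory receptor, had 12.5, 17.2 and 16 CPM without and 6.31, 5.41 and 7.11 with (-1.27 ± 0.20, adjusted p = 0.0027). Tnfrsf9, the 4-1BB gene, had 2 closed regions past its end, of which the nearer, with 5.53, 3.23 and 3.35 CPM without and 1.22, 1.08 and 2.25 with, lost its call without library 1 of either group (adjusted p = 0.0643 and 0.0589). The groups were apart at each of these 3 regions.

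Of 51 regions of chemokine receptor and migration genes, 8 opened (15.7%) and 4 closed (7.84%), with a median of 0.11. The region 1315 bases from the start of Ccr2, an inflammatory chemokine receptor, had 15.3, 18.8 and 15.9 CPM without and 37.4, 22.9 and 31.9 with SMARTA cells (0.88 ± 0.18, adjusted p = 0.01). The region 702 bases from the end of Cx3cr1, a receptor of effector cells, had 7.07, 14.2 and 14.5 CPM without and 2.70, 1.08 and 3.74 with (-2.21 ± 0.40, adjusted p = 0.0051). The groups were apart at both. The other calls were opened regions at Cxcr3, Cxcr4, Cxcr6, Gpr183, S1pr1 and Selplg (2 regions), and closed ones at Cxcr3, Ccr9 and Cd44. Without library 2 or 3 without SMARTA cells, 3 and 4 regions opened and 2 closed in each case. Without library 1, 2 or 3 with SMARTA cells, 6, 12 and 3 opened and 2, 5 and 3 closed, so the counts were equal without library 3.

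Cytokine receptors and STATs had 3 closed (5.66%) and 2 opened (3.77%) of 53 regions, with a median of 0.00. The largest fall among all listed genes lay inside Il2ra, 1610 bases before its end, the gene of the high-affinity IL-2 receptor chain, with 7.92, 6.92 and 8.35 CPM without and 0.764, 0.180 and 1.12 with SMARTA cells (-3.38 ± 0.37, adjusted p = 0.00047). These are 159, 180 and 202 counts without and 15, 3 and 30 with SMARTA cells. At the start of Il21r, the receptor for the CD4 T cell cytokine IL-21, the values were 46.4, 55.2 and 48.9 CPM without and 34.6, 22.6 and 23.3 with (-0.90 ± 0.16, adjusted p = 0.0045). Both had groups apart in every library. The stretch of Il21r printed near the opening holds NR4A letters. Il18rap, an IL-18 receptor chain, had a closed region past its end (-1.22 ± 0.26), which lost its call without library 2 without SMARTA cells (adjusted p = 0.0593) or library 3 with them (0.0663).

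The remaining 5 lists had 0 closed regions. Opened were 3 of 20 regions of interferon-stimulated genes (15%), 3 of 31 of cytosolic ribosomal proteins (9.68%), 3 of 44 of glycolysis and respiration genes (6.82%), 2 of 35 of chromatin regulators (5.71%) and 0 of 35 of cell cycle genes. Among cell cycle regions 5 had an unadjusted p under 0.05 (2 lower and 3 higher with SMARTA cells), and DESeq2 called 0. Total-count and loess scaling each closed 1 cell cycle region, a replicate block opened that at the start of Mcm5, a helicase subunit (0.29, adjusted p = 0.037), and 1 opened without library 3 without SMARTA cells and 1 closed without library 1 with them. The cell cycle gene with the smallest p was Cdkn1b, an inhibitor of cyclin-dependent kinases, with 89.9, 96.1 and 92.8 CPM without and 104, 105 and 108 with SMARTA cells (0.19 ± 0.06, adjusted p = 0.051). The region 905 bases from the start of Hk2, a hexokinase of activated lymphocytes, had 4.83, 5.65 and 7.03 CPM without and 12.2, 11.2 and 12.2 with SMARTA cells (1.02 ± 0.20, adjusted p = 0.0074), with no overlap. The opened calls at Aldoa (a glycolytic aldolase), Rpl27 and Rps14 (ribosomal proteins), Oas3 (an antiviral synthetase) and Ctcf (an insulator protein) were at folds of 0.22 to 0.29 and were all lost with loess scaling. The larger ones kept their call with that scaling: Pgam1 (a glycolytic mutase) at 1.02 ± 0.22, Bst2 (the antiviral tetherin) at 0.98 ± 0.25, Arid1a (a SWI/SNF subunit) at 0.94 ± 0.24 and Ddx58 (the RNA sensor RIG-I) at 0.52 ± 0.14. Each of these 4 lost its call without 1 or more libraries: Pgam1 without library 2 without SMARTA cells (adjusted p = 0.0579), Arid1a without library 1 or 2 without SMARTA cells or library 1 with them (up to 0.0778), and Bst2 and Ddx58 on leaving out each library other than library 2 with SMARTA cells (up to 0.0958 and 0.113). Medians were 0.05 for cell cycle, 0.10 for glycolysis and respiration, 0.13 for ribosomal, 0.26 for interferon-stimulated and 0.12 for chromatin genes. Without library 2 without SMARTA cells, 1 glycolysis, 0 ribosomal, 1 interferon-stimulated and 0 chromatin regions opened. Without library 1 or 3 without SMARTA cells, or library 3 with them, 0 interferon-stimulated regions opened. With loess scaling 3 interferon-stimulated and 0 ribosomal regions opened, and 1 glycolysis region closed.

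**Figure D5:**
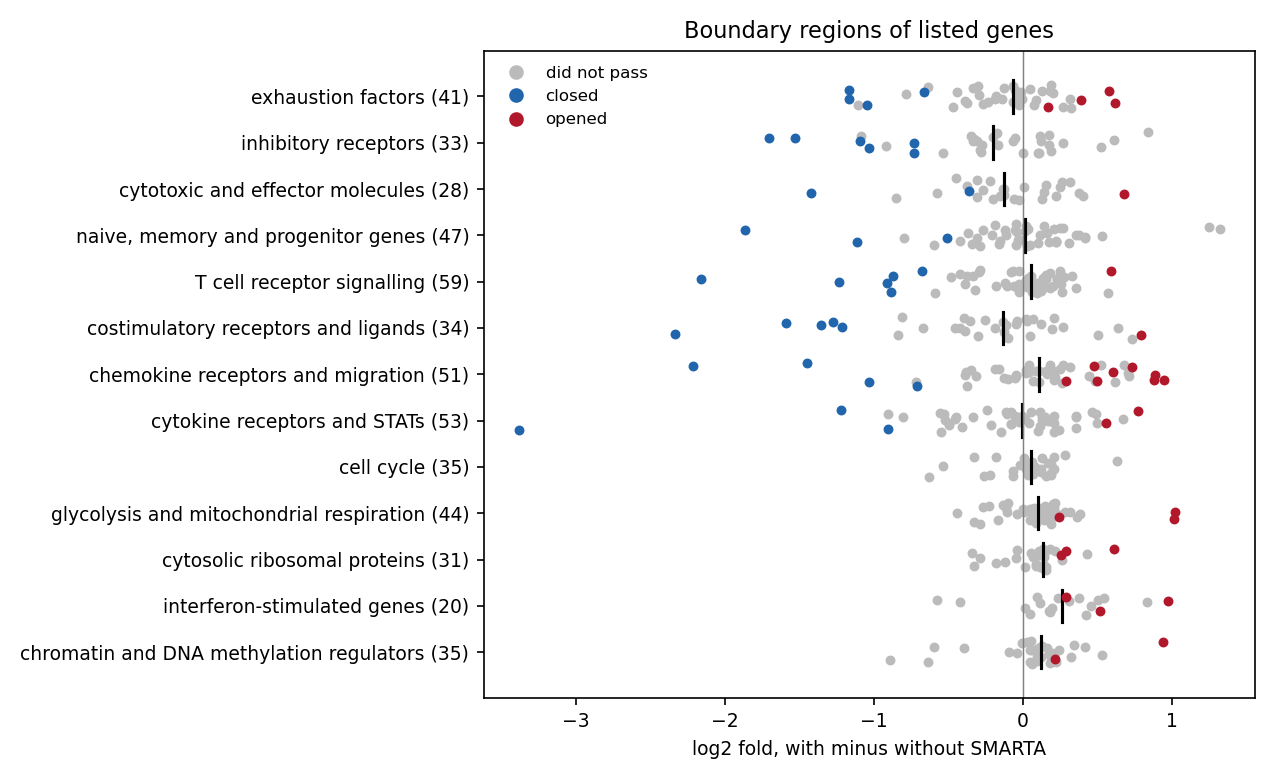
Log2 fold, with minus without SMARTA cells, of each boundary region of the listed genes (number of regions in brackets), closed in blue, opened in red and not passed in grey, with a black line at the median of the list. Blue points lie in the 8 upper lists and reach -3.38 at Il2ra, while the 5 lower lists have no blue point; with loess scaling 1 cell cycle and 1 glycolysis region close, and with total-count scaling 1 cell cycle region.

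Some genes closed at 1 end and opened at the other. Of the 1453 genes with boundary regions at both ends, 9 were called in opposite directions and 25 in the same direction. Cxcr3, the receptor for interferon-induced chemokines, had 6.32, 5.50 and 5.70 CPM without and 11.8, 10.4 and 11.6 with SMARTA cells at a region 803 bases from its start (0.95 ± 0.18, adjusted p = 0.0065). At a region 1070 bases from its end it had 5.13, 10.8 and 10.1 CPM without and 3.16, 3.13 and 3.29 with (-1.45 ± 0.28, adjusted p = 0.0069). The groups were apart at each, in opposite directions.

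Peli1, an E3 ubiquitin ligase that restrains T cell activation, opened at the start, with 76.8, 78.1 and 78.0 CPM without and 91.9, 104 and 94.6 with SMARTA cells (0.32 ± 0.07, adjusted p = 0.01). It closed 449 bases from its end, with 8.12, 7.54 and 10.6 CPM without and 4.12, 3.25 and 4.23 with (-1.17 ± 0.21, adjusted p = 0.0053). Spsb1, an adaptor of a ubiquitin ligase whose stretch with SP/KLF letters is printed near the opening, had 44.4, 46.7 and 47.9 CPM at the start without and 62.8, 63.6 and 59.9 with (0.42 ± 0.07, adjusted p = 0.0046). At its end it had 3.44, 3.84 and 2.77 CPM without and 1.88, 1.8 and 1.91 with (-0.84 ± 0.21, adjusted p = 0.023). No group overlapped another at these 4 regions. Cxcr3, Peli1 and Spsb1 were picked for small p among genes called in opposite directions, which favours groups that do not overlap. The start of Peli1 lost its call with loess scaling (adjusted p = 0.064), and the end of Spsb1 without library 1 or 2 without SMARTA cells or library 1 or 3 with them (0.059, 0.102, 0.0507 and 0.0835).

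The most accessible boundary regions of all held or lay by the starts of Sp1 (a general GC-box factor), Klf13 (a Kruppel-like factor) and Dnpep (an aspartyl aminopeptidase). Klf13 had 181, 184 and 178 CPM without and 202, 236 and 210 with SMARTA cells (0.25 ± 0.06, adjusted p = 0.018), with no overlap. Dnpep also opened by 0.26 ± 0.07 (adjusted p = 0.035) and Sp1, at 0.13 ± 0.05, did not pass. With loess scaling neither Klf13 nor Dnpep passed (adjusted p = 0.76 and 0.79) and the fold of Sp1 was -0.10. Klf13 also lost its call without library 1, 2 or 3 without SMARTA cells (0.0504, 0.0507 and 0.0794), and Dnpep without the same libraries or library 2 with them (0.11, 0.0579, 0.121 and 0.0611).

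The sequence at starts was compared over the 5303 start-side regions that shared at least 150 bases with a RefSeq promoter window of their own gene, 250 bases before to 50 after the start. Of these, 93 closed and 332 opened. All 14 motifs were searched as plain letters on both strands. AP-1 letters (TGANTCA) lay in 13 of the 93 closed windows (14%), against 4.3% of the 5303 and 7.81% of all 32851 listed promoters. They also lay in 13 of the 332 opened windows (3.92%). Of the 228 windows with AP-1 letters, 5.70% closed and 5.70% opened. NR4A letters (AAAGGTCA) lay in 4 of the 93 (4.3%), against 0.641% of the 5303 and 1.51% of all listed promoters. ETS letters (CCGGAAG) were in 3.23% of the closed windows and 18.9% of the 5303. Among other motifs, RUNX letters were in 6.45% of the closed windows and 3.79% of the 5303, and T-box letters in 2.15% and 0.66%. NF-kB and TCF/LEF letters were in 0 closed windows, against 1.41% and 1.90% of the 5303. The motifs named are part of the 14, and no difference between motifs was tested. A match is a description of letters and not of a bound site, and motifs differ in length and so in how often they occur.

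The 13 closed windows with AP-1 letters included those of Gzmb, Klrk1 (the NKG2D receptor), Klf9 (a Kruppel-like factor), Olr1 (a scavenger receptor) and Cd80 (a costimulatory ligand), and the 4 with NR4A letters were those of Olr1, Il21r, Inpp1 (an inositol phosphatase) and BC035044; apart from Gzmb and Il21r these were chosen after their values were seen. Their folds ran from -0.36 at Gzmb to -1.97 at Olr1, the promoter that held both. In the 332 opened windows some letters common in CpG-rich promoters were more frequent and others less. NF-Y letters (CCAAT) were in 51.8% against 40.3% of the 5303 and 37.4% of all listed promoters, and SP/KLF letters (GGGCGG) in 81.9% against 72.2% and 35.7%. ETS letters were in 14.8% against 18.9% of the 5303 and 8.86% of all listed promoters, letters of the NRF1 motif in 0.904% against 2.36% and 0.971%, and CRE letters (TGACGTCA) in 3.31% against 3.9% and 1.79%. The median GC content was 64.3% in opened, 63.7% in closed and 62.3% in the remaining windows. Opened calls were more frequent in the upper GC classes: in 5 classes of about equal size, 38, 50, 89, 83 and 72 regions opened from the lowest to the highest GC with TMM scaling, but 14, 2, 13, 5 and 10 with loess scaling, so the pattern among opened starts depends on the scaling.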

How the data were processed

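ATAC-seq was analysed in 6 libraries, 3 without and 3 with SMARTA cells, grouped by the sample titles. The deposited table holds raw read counts per region (GRCm38), and each library has a deposited list of its own peaks. Per the file columns, the authors list −log10 p and q values, a score and an enrichment ratio (fold over background) for every peak; only positions and ratios were used, to describe regions. Per the submitters' processing notes, the tools were MACS2 2.1.1, DiffBind 3.4.11, BWA 0.7.17, Picard 2.18.9 and SAMtools 1.8, with no role stated. Whether duplicates were removed or reads shifted for the transposase is not stated there; leftover duplicates would inflate counts.

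Counts were tested over all 74686 regions with edgeR 4.0.16 under R 4.3.3 (TMM scaling, filterByExpr, glmQLFit, glmQLFTest, Benjamini-Hochberg adjusted p under 0.05). The SE of a log2 fold is its size divided by the root of F, and log2 CPM used a prior count of 2. Peak overlaps used bedtools 2.31.1, with any shared base counted. Alternatives were total-count and loess scaling (limma 3.58.1), DESeq2 1.42.0, filters, a replicate block, a limit of 1 kb, distance from the region's centre, and each library left out. The code was tested on counts simulated for this comparison at 74686 regions. It recovered 4 of 50 regions changed 1.5-fold, 25 of 50 at 2-fold, 49 of 50 at 4-fold and 50 of 50 at 8-fold. There were 4 false calls among unchanged regions. Small changes were thus mostly missed there, and a region that did not pass may still differ.

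The members and the gene lists were chosen with earlier results of these data known. The text names the 10 closed and 10 opened regions with the smallest p and no overlap between groups, the 3 genes of each list with the smallest p (1 for markers), the 3 regions with the highest CPM, and 3 genes called in opposite directions at their ends; other genes are said to be chosen after their values were seen. The result at 1 listed gene is not reported here. Strand came from the RefSeq promoter table, which lists part of the genes. Of 322 listed symbols, 321 matched the gene table. No pair of libraries differed by less than sampling noise. The accessibility and GC classes under other scalings were chosen after seeing the data.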

Additional observations from a re-analysis of the deposited data

How the results depend on the processing

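All counts here are of boundary regions past the threshold. The closed counts were within 1.5 times of 675 in all, 312 near starts and 211 near ends under every scaling, filter and tool run, and fell to 422, 207 and 121 where the limit was 1 kb, which keeps fewer regions. The opened counts, 739 in all and 487 near starts, fell to 411 and 248 with total-count scaling, 356 and 145 with loess scaling, and 449 and 219 with DESeq2; the cause was not tested. Leaving out 1 library at a time gave 326 to 733 closed and 172 to 787 opened in all, 135 to 379 closed and 103 to 551 opened near starts, and 118 to 240 closed and 31 to 132 opened near ends, from 1 library fewer. The difference in the share of counts ran from 1.14 to 2.19 percentage points, and the difference between boundary and other regions from 0.12 to 0.14 log2 units. Of 63 called named regions, 57 kept their call with total-count scaling and 53 with loess scaling, and 0 reversed. Among named regions not called, the fold of Sp1 was -0.10 with loess scaling and that of Kdr 0.047 without library 1 without SMARTA cells, against the opposite sign in the full set (Kdr ranged from -0.46 to 0.047 over the libraries left out).

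The labels state no pairing of the libraries. Same-numbered libraries deviated from their group means with correlations of -0.02, -0.08 and 0.08. Differently numbered ones ranged from -0.11 to 0.09, so no sign of pairing was seen. With 3 libraries in each group, this check cannot exclude a pairing. With a replicate block, 654 regions closed and 803 opened in all, 306 and 565 near starts, and 196 and 92 near ends. The SE of the log2 fold had a median of 0.18 over boundary regions, 0.10 at regions holding a start and 0.23 near ends, so a change of a given size was harder to detect near ends.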
